A study of Mus musculus with 2 samples.

Results

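The cells described here were B cells of the mouse liver with at least 2 transcripts of Vpreb3 and none of Fcer2a, a rule that was written to pick out immature B cells. They were chosen cell by cell from the counts of both libraries. A barcode qualified with at least 1500 unique molecular identifiers (UMIs, the tags that count captured transcripts), under 10% of them from mitochondrial genes, at least 2 UMIs of Cd79a (a part of the B cell receptor), at least 2 of Vpreb3, none of Fcer2a, none of the T cell gene Cd3e, and fewer than 5 UMIs of Jchain, Igha, Ighg1, Ighg2b and Ighg3 together, which keeps out antibody-secreting cells. This found 584 cells among 16052 called cells, 216 of 7050 in the antibiotic library and 368 of 9002 in the vehicle library. The values that chose the cells (Vpreb3, Fcer2a, Cd79a, Cd3e and the antibody genes) are given as a description and support nothing.

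CD45+ leukocytes were sorted from the livers of 6-week-old female mice and captured as 1 library per condition. The antibiotic mice drank ampicillin at 1 mg/mL, vancomycin at 0.5 mg/mL, neomycin at 0.5 mg/mL and metronidazole at 1 mg/mL, and the vehicle mice drank vehicle. The labels give 1 week of treatment. How many mice were pooled for a library is not stated. No mutation or transgene is named for either library, and both were made with the Chromium 3′ kit, version 2. With 1 library per condition there was no test between them, and the treatment cannot be told apart from differences of mouse, capture or library. The libraries held 29811401 UMIs (antibiotic) and 41474311 UMIs (vehicle), and the chosen cells 531077 and 1013559 of these. Their median depth was 2220 UMIs in the antibiotic library and 2467 in the vehicle library. Among called cells 93 barcodes occurred in both libraries, and no barcode was a chosen cell in both.

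B cells are made in the bone marrow, where a cell first joins its heavy chain gene and tests it with a stand-in light chain before it makes a real one. The immature cell that results carries IgM, leaves the marrow as a transitional B cell, and then gains IgD and CD23, the IgE receptor that Fcer2a encodes, as it matures into a follicular B cell. Immature and transitional cells are known for high CD24 and for CD93, which mature follicular cells lack. Vpreb3 is an immunoglobulin-like protein that binds immunoglobulin chains inside the cell and is made through much of B cell development.

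The promoters of Vpreb3, which defined the cells, and of Chchd10, its neighbor and a gene that ran high in the same cells, are shown because both hold the octamer, the 8-base element bound by the Oct factors of B cells and known from immunoglobulin promoters. The sequences are the 250 bases before the RefSeq start of each gene, on the plus strand of GRCm38.p6. Capitals mark the octamer, searched as ATTTGCAT and as its reverse complement ATGCAAAT.
Vpreb3, chr10:75948050-75948299: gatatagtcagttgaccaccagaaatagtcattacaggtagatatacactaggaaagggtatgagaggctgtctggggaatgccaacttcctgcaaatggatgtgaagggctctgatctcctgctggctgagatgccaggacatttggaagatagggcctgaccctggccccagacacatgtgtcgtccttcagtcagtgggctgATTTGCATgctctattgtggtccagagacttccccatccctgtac
Chchd10, chr10:75932880-75933129: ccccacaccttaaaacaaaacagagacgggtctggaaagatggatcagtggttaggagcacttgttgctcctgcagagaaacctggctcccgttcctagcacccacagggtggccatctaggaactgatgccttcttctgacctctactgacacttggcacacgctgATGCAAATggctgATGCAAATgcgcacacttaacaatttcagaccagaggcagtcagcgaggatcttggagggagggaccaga

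The octamer began 45 bases before the Vpreb3 start, and 83 and 70 bases before the Chchd10 start. It occurred in 526 of 32851 RefSeq promoter windows of this length (1.601%). In GENCODE vM21, Chchd10 lies on chromosome 10 at 75933130 to 75937747 and Vpreb3 at 75943057 to 75949657, both on the plus strand with 5309 bases between them, so the RefSeq start of Vpreb3 is inside the GENCODE gene. Gm867, on the minus strand at 75937723 to 75940672, overlaps the end of Chchd10. It had 1 UMI in the chosen cells of the antibiotic library and 0 in those of the vehicle library. The windows of Spib, Fam129c (Niban3 in RefSeq), Ifi30 and Pld4, other genes described here, held no match. A match is a run of letters and not a shown binding site.

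The label was set beside markers of immature B cells. These were proposed with earlier results of these data known, so they describe the cells and are no independent check of the name. Expression was the sum of a gene's UMIs over the cells of a group in a library scaled to counts per 1000000 of all their UMIs (CPM). The reference was the Fcer2a-positive B cells chosen by the same rule apart from Fcer2a and Vpreb3 (621 antibiotic and 1820 vehicle cells), which carry the CD23 gene of follicular cells. Ranges in parentheses are 95% intervals (exact for Poisson counts where a ratio is given, by Clopper-Pearson for a share) that hold counting error alone. Cd24a, which encodes CD24, had 659 CPM in the chosen cells and 379 CPM in Fcer2a-positive cells of the antibiotic library, a ratio of 1.74 (1.52 to 1.99). The vehicle library gave 977 and 327 CPM, a ratio of 2.99 (2.76 to 3.24). Spib, an Ets family transcription factor of B cells, had 354 and 166 CPM in the antibiotic library and 336 and 156 CPM in the vehicle library, ratios of 2.14 and 2.15. Fam129c had 113 and 47.1 CPM in the antibiotic library and 138 and 33.1 CPM in the vehicle library, ratios of 2.40 and 4.17. All of the label's markers were therefore higher than in Fcer2a-positive cells in each library, and Vpreb3 itself, set by the rule, had 1376 and 465 CPM in the antibiotic library and 1600 and 375 CPM in the vehicle library.

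Other defining genes went less well with the name. Cd93, the surface marker of transitional B cells, was seen in 3.70% of the chosen antibiotic cells and 4.08% of the chosen vehicle cells, on 8 and 17 UMIs. T cells, which were deeper (median 3698 and 4222 UMIs), had a Cd93 UMI in 3.9% and 5.66%, and Fcer2a-positive cells in 1.29% and 1.10%. With every cell thinned to 1500 UMIs the shares were 1.85% (0.507 to 4.67) of chosen antibiotic cells and 2.99% (1.5 to 5.29) of chosen vehicle cells, against 1.18% and 1.90% of T cells. Cd93 over all chosen cells was therefore not above the T cell share beyond counting error. Thinned Fcer2a-positive cells had 0.644% (0.176 to 1.64) in the antibiotic library and 0.549% (0.264 to 1.01) in the vehicle library. Beside these, the interval of the chosen cells overlapped in the antibiotic library and lay above in the vehicle library. The few cells with a Cd93 UMI (8 antibiotic and 15 vehicle cells) had 1145 CPM of Cd24a in the antibiotic library and 1681 CPM in the vehicle library, against 638 and 937 CPM in the chosen cells without one, and 733 and 2087 CPM of H2-Aa, a chain of MHC class II, against 4805 and 4119 CPM. Other markers did not go the same way in both libraries. Ms4a1 had 3024 CPM in the antibiotic cells with Cd93 and 1496 CPM in the vehicle ones, against 1799 and 2420 CPM in those without, and Fam129c 275 and 55.4 CPM against 106 and 143 CPM, on 6 and 3 UMIs. Sox4, a transcription factor of lymphoid progenitors, was 1.06 times the Fcer2a-positive level in the antibiotic library and 2.63 times in the vehicle library. Bach2, which restrains plasma cell differentiation, was at 0.963 and 1.09 times that level. Because of this and of the spread among the cells given next, they are called Vpreb3+ Fcer2a- B cells here.

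Single cells carried few copies of the markers. Of the 3 genes Cd24a, Spib and Fam129c, all were seen in 11.6% of the Vpreb3+ Fcer2a- cells of the antibiotic library and 17.4% of those of the vehicle library, and none in 22.7% and 18.5%. In Fcer2a-positive cells all 3 were seen in 2.74% (antibiotic) and 2.80% (vehicle). A Cd24a UMI was found in 59.3% and 69.8% of Vpreb3+ Fcer2a- cells of the antibiotic and vehicle libraries, and in 45.8% and 58.2% after thinning. In T cells, of which few carry much CD24, the unthinned shares were 0.679% and 3.0%, so the Cd24a reads of the B cells stood above free RNA.

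Genes of earlier stages had few UMIs. Rag1 and Rag2, which cut the receptor genes, had 0 and 0 UMIs in the antibiotic cells and 1 and 0 UMIs in the vehicle cells. Dntt, which adds bases at the joins, had 0 UMIs in each library. Igll1, a part of the stand-in light chain, had 0 UMIs in antibiotic cells and 10 UMIs in vehicle cells, all in 1 cell. Vpreb1, its other part, had 1 UMI in the antibiotic cells and 3 in the vehicle cells. A count of 0 cells allows a share of up to 1.39% of the 216 antibiotic cells and 0.815% of the 368 vehicle cells to hold a UMI. Il7r, the interleukin 7 receptor of early B cells and of T cells, had 7 UMIs in antibiotic cells and 16 in vehicle cells, at 0.432 (0.165 to 0.964) and 2.44 (1.26 to 4.57) times the Fcer2a-positive level. It was seen in 3.24% of antibiotic and 2.45% of vehicle cells, against 59.1% and 36.7% of T cells.

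The Vpreb3+ Fcer2a- cells differed in their Vpreb3 count. In the antibiotic library 100 cells held 2 Vpreb3 UMIs, 55 held 3, 26 held 4 and 35 held 5 or more, with a highest count of 18. These numbers were 133, 78, 39 and 118 in the vehicle library, where the highest count was 28. The median was 3 in each library. Cells with 5 or more were 16.2% (11.6 to 21.8) of the antibiotic cells and 32.1% (27.3 to 37.1) of the vehicle cells, a ratio of 0.505 (0.336 to 0.742).

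**Figure D1:**
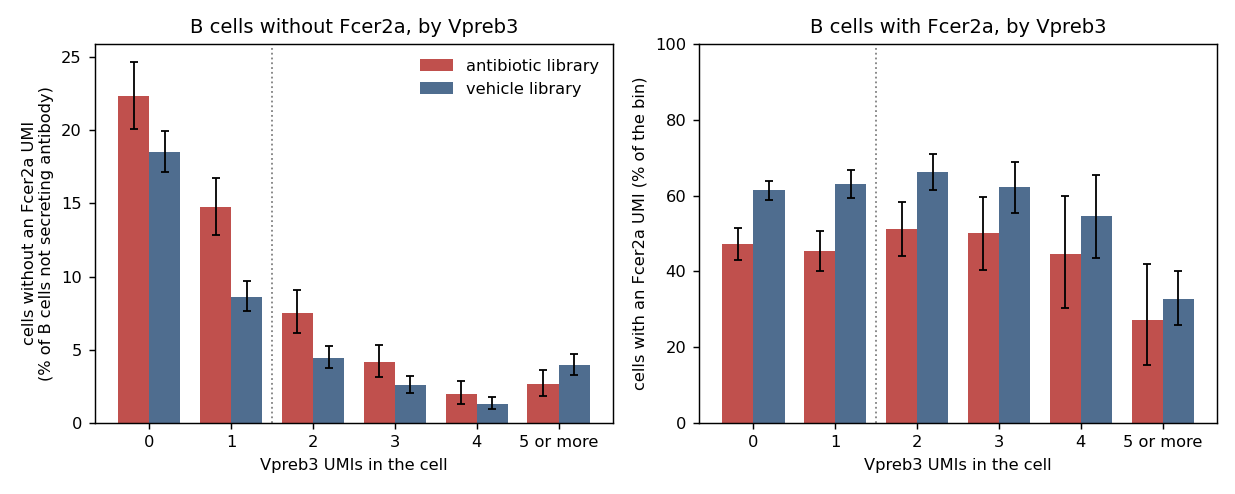
Vpreb3 UMIs per cell (horizontal axes) against the share of all non-secreting B cells that held that many and no Fcer2a UMI (left, percent) and the share of the cells of each bin with an Fcer2a UMI (right, percent), antibiotic beside vehicle, with 95% Clopper-Pearson intervals and a dotted line at the rule's minimum. Cells without Fcer2a and with 2 to 4 Vpreb3 UMIs took a larger share of B cells in the antibiotic library and cells with 5 or more a larger share in the vehicle library.

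The share of cells with Fcer2a was lowest at the top of the Vpreb3 range. Among B cells that were not antibody-secreting, the share with an Fcer2a UMI in the antibiotic library was 47.2% at 0 Vpreb3 UMIs, 45.3% at 1, 51.2% at 2, 50.0% at 3, 44.7% at 4 and 27.1% at 5 or more. In the vehicle library it was 61.4%, 63.1%, 66.2%, 62.3%, 54.7% and 32.6% at the same counts. Cells with 2 or 3 Vpreb3 UMIs thus held Fcer2a about as often as cells with none. These genes made the rule, so the relation is a description.

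Cd24a, Ms4a1 and Chchd10 were higher toward the top of the same range. With the cells ordered by 2, 3, 4, 5 to 9 and 10 or more Vpreb3 UMIs (the last bins were split after the values were seen, and hold 29 and 6 antibiotic cells, and 88 and 30 vehicle cells), Cd24a had 443, 544, 755, 1196 and 1567 CPM in the antibiotic library. The vehicle library gave 526, 662, 946, 1393 and 2409 CPM. Ms4a1, the gene of CD20, had 1256, 1691, 2316, 2698 and 5546 CPM in the antibiotic library, and 1753, 2059, 2380, 3029 and 3752 CPM in the vehicle library. Chchd10 had 565, 521, 1057, 1044 and 1507 CPM in the antibiotic library, and 414, 545, 784, 923 and 1876 CPM in the vehicle library. At 2 Vpreb3 UMIs, Cd24a and Ms4a1 were closest to the level of Fcer2a-positive cells (379 and 974 CPM in the antibiotic library, 327 and 1148 CPM in the vehicle library), and at 10 or more they were farthest above it. Median depth moved little along the order, between 2143.5 and 2586 UMIs in the antibiotic library and between 2369 and 2597 UMIs in the vehicle library.

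Receptor isotypes ran in opposite directions along this order. Ighm, the IgM heavy chain, had 4507, 5058, 5489, 6486 and 8740 CPM in the antibiotic library, against 3882 CPM in Fcer2a-positive cells. In the vehicle library it had 4804, 5213, 5858, 7831 and 8281 CPM, against 3580 CPM. Ighd, the IgD heavy chain, had 1109, 845, 923, 669 and 543 CPM in the antibiotic library and 809, 610, 545, 429 and 111 CPM in the vehicle library. Fcer2a-positive cells had 1064 CPM of Ighd in the antibiotic library and 907 CPM in the vehicle library. High IgM with low IgD transcript was therefore a property of the cells with the most Vpreb3, in each library.

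Bcl2 and H2-Aa were lowest at the top of the order. Bcl2, which protects mature lymphocytes from death, had 186, 181, 118, 70.4 and 60.3 CPM in the antibiotic library and 140.0, 209.6, 143, 126 and 11.1 CPM in the vehicle library. H2-Aa had 5418, 4695, 5354, 2698 and 422 CPM in the antibiotic library and 5260.4, 4514, 4310, 2778 and 888 CPM in the vehicle library. H2-Aa was lower at 5 to 9 UMIs than at 2 to 4 and lower again at 10 or more in each library, while the count of Bcl2 in the 6 antibiotic cells of the top bin was 1 UMI.

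**Figure D2:**
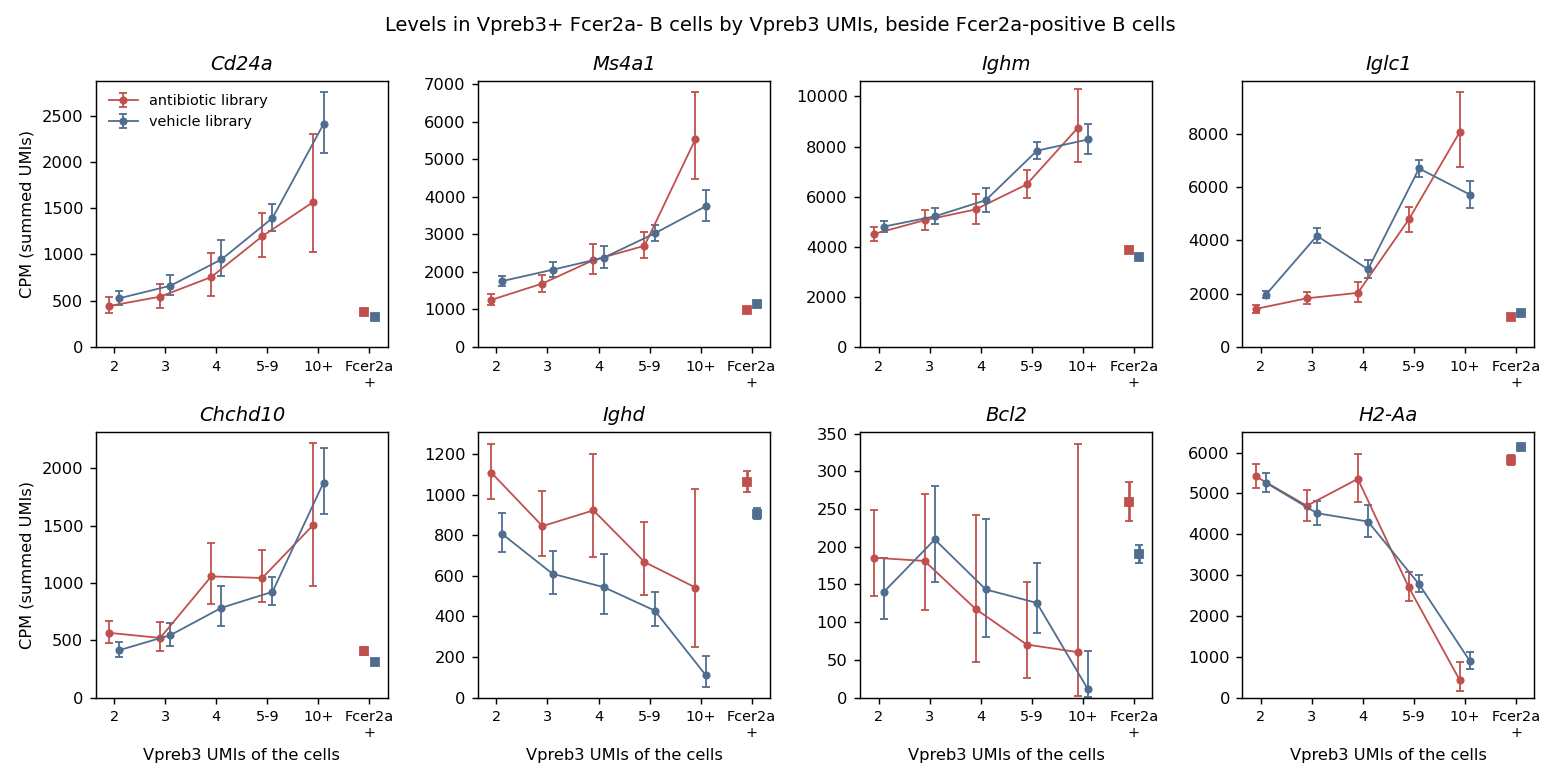
Expression (vertical axes, CPM, linear scales from 0, with 95% Poisson intervals) of Cd24a, Ms4a1, Ighm, Iglc1, Chchd10, Ighd, Bcl2 and H2-Aa in Vpreb3+ Fcer2a- B cells by their Vpreb3 UMIs (horizontal axis), with Fcer2a-positive B cells at the right, antibiotic and vehicle libraries in separate colors. Cd24a, Ms4a1 and Ighm were highest and Ighd, Bcl2 and H2-Aa lowest in the cells with the most Vpreb3.

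The Vpreb3 minimum cut through cells with like Cd24a. Just inside it, cells with 2 Vpreb3 UMIs had 443 CPM of Cd24a in the antibiotic library and 526 CPM in the vehicle library. Just outside it, Fcer2a-negative cells with 1 Vpreb3 UMI (196 antibiotic and 259 vehicle cells) had 395 and 428 CPM of Cd24a. Cells with 2 or more Vpreb3 UMIs but 1 Fcer2a UMI (107 antibiotic and 224 vehicle cells) had 482 and 503 CPM. All chosen cells, which hold no Fcer2a, had 659 CPM in the antibiotic library and 977 CPM in the vehicle library. The cells on each side of the rule's limits differed less in Cd24a than the lowest and highest Vpreb3 bins inside it.

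Across all genes, 5792 had at least 30 UMIs in the Vpreb3+ Fcer2a- and Fcer2a-positive cells together in each library. A gene was counted as higher or lower where the ratio was at least 1.5-fold the same way in both libraries, a rule of size and not a test. By it 87 genes (1.5%) were higher in Vpreb3+ Fcer2a- cells and 48 (0.829%) lower. Since the cells were split on expression, these genes, Vpreb3 and Fcer2a among them, describe the split. The median log2 ratio over all genes was 0.07 in the antibiotic library and 0.12 in the vehicle library.

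**Figure D3:**
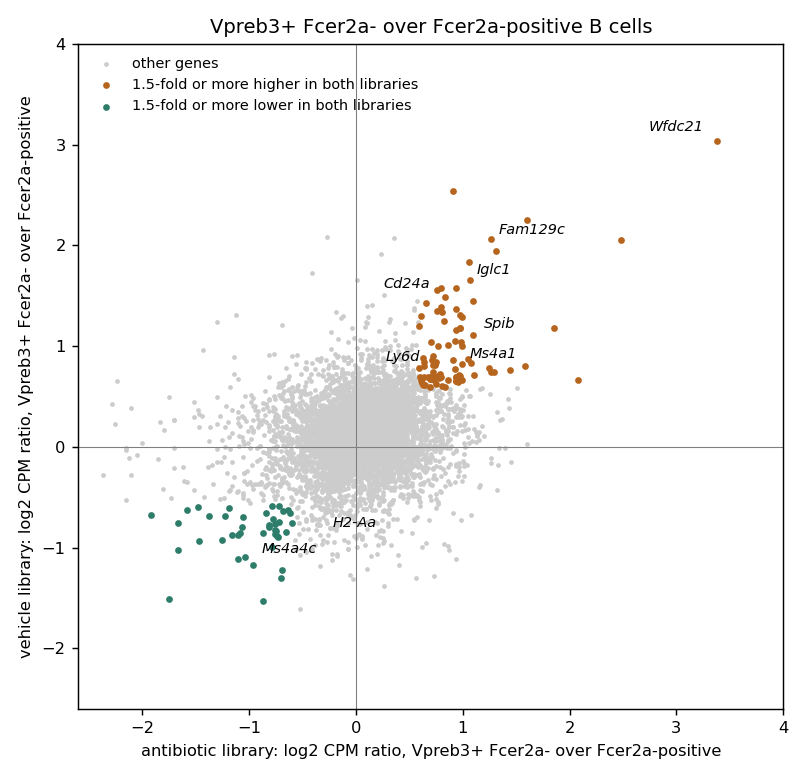
Log2 ratio of CPM in Vpreb3+ Fcer2a- over Fcer2a-positive B cells in the antibiotic library (horizontal axis) and the vehicle library (vertical axis), 1 point per gene without the genes of the selection rule, colored where a gene was at least 1.5-fold higher or lower in both libraries, with some genes named. Spib, Fam129c, Ms4a1, Cd24a and Wfdc21 lie at the upper right, high in each library, and Ms4a4c at the lower left. The axes show 5780 genes, and 7 lie outside them.

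Ms4a1, Ly6d, Ifi30, Pld4 and Chchd10 were also among the named genes that were higher. Ms4a1 had 1849 CPM in Vpreb3+ Fcer2a- cells and 974 CPM in Fcer2a-positive cells of the antibiotic library, and 2371 and 1148 CPM in the vehicle library, ratios of 1.90 (1.75 to 2.06) and 2.07 (1.97 to 2.17). Ly6d, a surface protein that appears with commitment to the B lineage, was at 1.65 times the Fcer2a-positive level in the antibiotic library and 1.76 times in the vehicle library. Ifi30, a lysosomal thiol reductase, had ratios of 1.99 and 2.45. Pld4, a lysosomal enzyme that degrades nucleic acid, had ratios of 2.06 and 1.82. Chchd10, a protein of mitochondria whose promoter is printed above, had 716 and 404 CPM in the antibiotic library and 734 and 310 CPM in the vehicle library, ratios of 1.77 and 2.37. Dnajc7 (1.70 and 2.0) and Pafah1b3 (1.75 and 2.52) completed the 10 named genes that were higher.

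Of the 87 higher genes 58 matched a RefSeq promoter window, and 3 of these windows (5.172%) held the octamer, those of Vpreb3, Chchd10 and Alyref2. Among all measured genes 71 of 4503 windows held it (1.577%), and among the lower genes 2 of 37 (5.405%). Vpreb3 is high by the rule, and without it and the other genes of the rule 2 of 57 windows of the higher genes (3.509%) and 2 of 36 of the lower genes (5.556%) held it.

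Some genes of lower level, named after their values were seen, were higher as well. Wfdc21, a protein of the whey acidic protein family, had 71.6 CPM in Vpreb3+ Fcer2a- cells and 6.63 CPM in Fcer2a-positive cells of the antibiotic library, a ratio of 10.8 (5.28 to 24.3). In the vehicle library it had 99.6 and 12.1 CPM, a ratio of 8.21 (5.92 to 11.5). Its UMIs came from 18 antibiotic cells and 52 vehicle cells, and 5 cells gave 63.2% of them in the antibiotic library. Ezh2, the histone methyltransferase of the Polycomb complex, had ratios of 2.47 (antibiotic) and 3.83 (vehicle), the cell cycle factor E2f2 3.65 and 2.24, and the anchoring protein Akap12 3.03 and 4.77. How the UMIs of Ezh2, E2f2 and Akap12 were spread over cells was not computed, so a few cells may hold most of them.

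Among the genes that were lower, Ms4a4c, a relative of CD20, had ratios of 0.593 in the antibiotic library and 0.560 in the vehicle library, and the gene Gm8369 of 0.643 and 0.646. Ppp1r15a, a stress-induced phosphatase subunit, had ratios of 0.326 and 0.643. Apoe (0.461 and 0.734) and Klf6 (0.421 and 0.701), also named by the rule, were past the fold in the antibiotic library alone. Ccr6, a chemokine receptor, had ratios of 0.580 and 0.526 at under 40 CPM. Among the 15 measured genes of migration and homing, none was past the fold upward, and 2 (Ccr6 among them) were past it downward. In both libraries 11 lay below 0, as did 1078 of all 5792 genes. The medians of log2 ratio of the homing genes were −0.37 (antibiotic) and −0.38 (vehicle).

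MHC class II transcripts were lower, with none past the fold in both libraries. H2-Ab1 had 4536 CPM in Vpreb3+ Fcer2a- cells and 5701 CPM in Fcer2a-positive cells of the antibiotic library, and 4276 and 6144 CPM in the vehicle library. H2-Aa had ratios of 0.798 (antibiotic) and 0.653 (vehicle), and H2-Eb1 of 0.808 and 0.656. All 12 measured genes of the class II pathway, Cd74 and the H2-DM chains included, lay below 0 in each library, with medians of −0.26 and −0.52. The same held for 1078 of all 5792 genes. H2-Aa and H2-Eb1 were past the fold in the vehicle library.

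Of the 6 measured genes of immature B cells outside the rule, 4 were past the fold upward in both libraries (Cd24a, Spib, Fam129c and Ms4a1) and none downward, with medians of 0.86 and 1.25. These markers were proposed with earlier results of these data known. Of 13 genes of follicular cells, none was higher and 1 was lower in both, with medians of −0.12 and −0.37. Bcl2 had 154 and 259 CPM in the antibiotic library and 140.1 and 190.5 CPM in the vehicle library, ratios of 0.596 and 0.735. Ighd had ratios of 0.878 and 0.645. Tnfrsf13c, the receptor of the survival factor BAFF, had ratios of 1.42 and 1.66, above 1 unlike most of that list.

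Of 15 measured positive signalling parts of the B cell receptor, none was past the fold and 13 lay above 0 in both libraries. Over all genes 2365 of 5792 lay above 0 in both. The medians of the list were 0.36 (antibiotic) and 0.17 (vehicle), beside 0.07 and 0.12 over all genes. Cd79b, the partner of Cd79a in the receptor, had 3077 CPM in Vpreb3+ Fcer2a- cells and 2362 CPM in Fcer2a-positive cells of the antibiotic library, and 3636 and 2584 CPM in the vehicle library. Of 10 inhibitors of the receptor 8 lay above 0 in both, led by Siglecg, a lectin that dampens the signal, at ratios of 1.44 and 1.52. Of 21 transcription factors of the B lineage, 1 was past the fold, Spib, and Ebf1, which sets up the lineage, had ratios of 1.26 and 1.42.

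Set against the other Fcer2a-negative B cells, which had 0 or 1 Vpreb3 UMI (493 antibiotic and 814 vehicle cells), 96 of 5329 genes (1.80%) were higher and 49 (0.919%) lower in both libraries. The leading genes were again Chchd10 (2.21 in the antibiotic library and 3.41 in the vehicle library), Ifi30 (2.33 and 2.36), Spib (2.26 and 2.30), Ms4a1 (1.89 and 2.14), Cd24a (1.64 and 2.44) and Fam129c (1.85 and 3.26). Apoe, the lipid carrier, was lower at 0.341 and 0.535, and Bcl2 at 0.555 and 0.695. The rise of these genes with Vpreb3 was thus also found among cells without Fcer2a.

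Light chain use was described as well. A cell was counted as a lambda cell where it held at least 5 light chain UMIs and more from Iglc1, Iglc2 and Iglc3 than from Igkc, the kappa chain that most mouse B cells use. Shares are of the cells with at least 5 light chain UMIs. Lambda cells were 13.4% (9.18 to 18.7) of Vpreb3+ Fcer2a- cells and 8.86% (6.74 to 11.4) of Fcer2a-positive cells in the antibiotic library, with intervals that overlap. In the vehicle library they were 19.8% (15.9 to 24.3) and 8.80% (7.53 to 10.2), with intervals that do not. Among the other Fcer2a-negative B cells they were 9.16% (antibiotic) and 12.4% (vehicle). Within the chosen cells the share was 22.9% (10.4 to 40.1) at 5 or more Vpreb3 UMIs and 11.6% (7.33 to 17.2) at 2 to 4 in the antibiotic library, and 27.1% (19.3 to 36.1) and 16.4% (12.03 to 21.6) in the vehicle library. The point estimate was higher with more Vpreb3 in each library, but the intervals of the bins overlap in both. Iglc2 and Iglc3 are near-identical, so how their reads were divided is uncertain, and lambda cells with more Iglc1 than Iglc2 and Iglc3 UMIs were 6.94% and 9.78% of the chosen cells in the antibiotic and vehicle libraries.

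**Figure D4:**
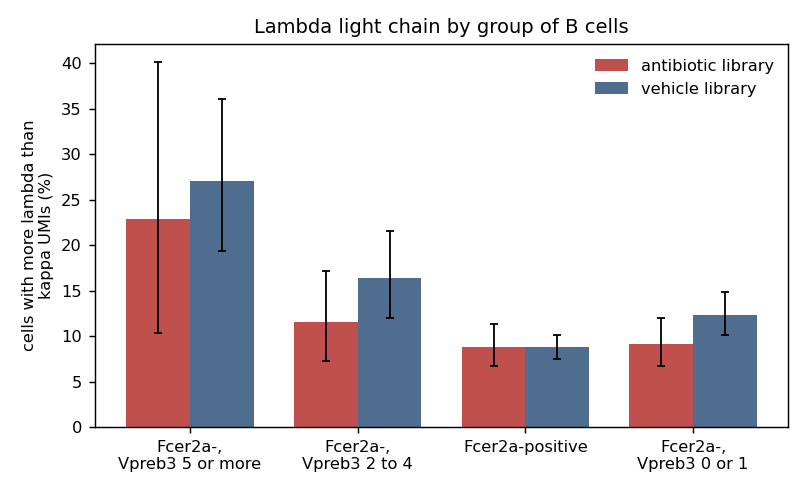
Share of lambda cells (vertical axis, percent, with 95% Clopper-Pearson intervals) in Fcer2a-negative B cells with 5 or more and with 2 to 4 Vpreb3 UMIs, in Fcer2a-positive B cells and in Fcer2a-negative B cells with 0 or 1 Vpreb3 UMI, antibiotic beside vehicle. The highest shares, 22.9% and 27.1%, are those of the cells with the most Vpreb3.

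Iglc1 moved with these cells. It had 2342 CPM in Vpreb3+ Fcer2a- cells and 1119 CPM in Fcer2a-positive cells of the antibiotic library, and 4019 and 1272 CPM in the vehicle library, ratios of 2.09 and 3.16. The 5 chosen cells with the most held 30.8% of its UMIs in the antibiotic library and 19.6% in the vehicle library. An Iglc1 UMI was seen in 69.4% of the chosen antibiotic cells and 75.3% of the vehicle ones. Chosen cells counted as kappa held a median of 11 (antibiotic) and 13 (vehicle) lambda UMIs, against 9 and 11 in Fcer2a-positive kappa cells. The level of Iglc1 is thus not a measure of lambda cells alone.

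Few of the cells were in cycle. A UMI of Mki67, Top2a, Cdk1, Birc5 or Ube2c was found in 3 antibiotic cells (1.39%) and 11 vehicle cells (2.99%), of which 1 and 7 held 5 or more Vpreb3 UMIs. In Fcer2a-positive cells the shares were 1.61% (antibiotic) and 2.75% (vehicle). Stmn1, a microtubule protein that is high in dividing cells, had 11 UMIs in 5 antibiotic cells and 123 UMIs in 22 vehicle cells, where 5 cells gave 86.2%. Stmn1 therefore described a handful of vehicle cells.

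The share of Vpreb3+ Fcer2a- cells in the 2 libraries depended on the denominator. Of all called cells they were 3.06% (2.67 to 3.49) in the antibiotic library and 4.09% (3.69 to 4.52) in the vehicle library, a ratio of 0.749 (0.631 to 0.889). All B cells (at least 2 Cd79a UMIs, no Cd3e) were 19.0% of called cells in the antibiotic library and 33.5% in the vehicle library, a ratio of 0.567. Of B cells the chosen cells were 16.1% (14.2 to 18.2) in the antibiotic library and 12.2% (11.1 to 13.4) in the vehicle library, a ratio of 1.32 (1.11 to 1.57). So the chosen cells were a smaller part of the leukocytes and a larger part of the B cells in the antibiotic library.

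The direction within B cells turned with the Vpreb3 minimum. At 3 or more UMIs the Fcer2a-negative cells were 8.66% of antibiotic B cells and 7.79% of vehicle B cells, a ratio of 1.11 (0.882 to 1.39). At 4 or more the ratio was 0.874 (0.640 to 1.18). At 5 or more they were 2.61% (35 cells) in the antibiotic library and 3.91% (118 cells) in the vehicle library, a ratio of 0.668 (0.444 to 0.981). At 10 or more 6 antibiotic cells and 30 vehicle cells remained. Bin by bin, as shares of non-secreting B cells, Fcer2a-negative cells were 7.52% (antibiotic) and 4.43% (vehicle) at 2 UMIs, 4.14% and 2.60% at 3, 1.95% and 1.30% at 4, and 2.63% and 3.93% at 5 or more, with intervals that overlap except at 2 UMIs. The point estimate was thus higher in the antibiotic library at each count of 2 to 4 and lower at 5 or more.

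Fcer2a and depth moved with that share. An Fcer2a UMI was seen in 46.7% of non-secreting antibiotic B cells and 60.6% of vehicle B cells, and after thinning in 36.5% and 45.2%. Of non-secreting B cells, those with 2 or more Vpreb3 UMIs whatever their Fcer2a were 30.8% (410 of 1330) in the antibiotic library and 28.7% (862 of 3002) in the vehicle library, a ratio of 1.07 (0.952 to 1.21). With the rule applied after thinning, the share of B cells was 12.5% and 9.97%, a ratio of 1.25 (1.03 to 1.52). Without the Fcer2a term the ratio was thus close to 1, and at 5 or more Vpreb3 UMIs whatever the Fcer2a it was 0.619 (0.440 to 0.856). T cells, as a measure of free RNA, held a Vpreb3 UMI in 1.04% (antibiotic) and 2.07% (vehicle).

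RNA of other cell types was present in these B cells. At least 2 UMIs of markers of T, NK, myeloid, plasmacytoid or neutrophil cells were found in 49.1% of the antibiotic cells and 61.4% of the vehicle cells, and in 46.5% and 65.2% of Fcer2a-positive cells. Over the 10 NK and innate-like markers the sum was 412 CPM in the antibiotic cells and 859 CPM in the vehicle cells, over the 10 T cell markers 435 and 536 CPM, and over the 12 myeloid markers 20.7 and 157 CPM. Of the myeloid list 10 genes were at 0 in the antibiotic cells, Csf1r, Adgre1 and C1qa among them, and 4 in the vehicle cells. Single cells gave much of this, such as 117 of the 187 Gzma UMIs of the vehicle cells. Scrublet marked 1 antibiotic cell and 4 vehicle cells as doublets. With the chosen cells that held such UMIs left out, the share of called cells had a log2 ratio of −0.02, against −0.42 with them. All called cells stayed in the denominator, while 49.1% of antibiotic and 61.4% of vehicle chosen cells left the numerator. So −0.02 is not a share among cells free of such UMIs. Without the cells that held such UMIs, 225 genes were at least 1.5-fold higher and 247 lower in the antibiotic library, against 439 and 426 with them, over fewer cells.

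Between the libraries, 4982 genes had at least 30 UMIs in the Vpreb3+ Fcer2a- cells. Of these 439 (8.81%) were at least 1.5-fold higher in the antibiotic library and 426 (8.55%) lower, and the median log2 ratio was 0.02. In Fcer2a-positive cells 843 of 8403 genes (10.0%) were higher and 373 (4.44%) lower, with a median of 0.10. With 1 library each these counts hold counting error as well as any difference.

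**Figure D5:**
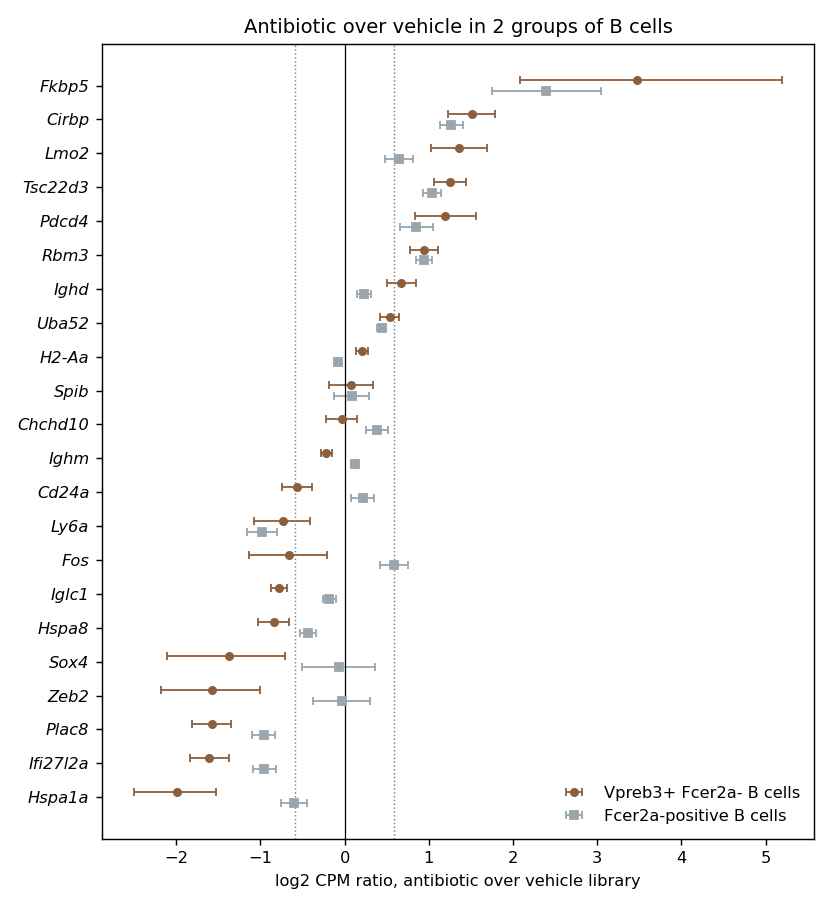
Log2 ratio of CPM in the antibiotic over the vehicle library (horizontal axis, with 95% counting intervals) for named genes, in Vpreb3+ Fcer2a- B cells and in Fcer2a-positive B cells. Cirbp, Tsc22d3 and Rbm3 lie to the right and Plac8 and Ifi27l2a to the left in each kind of cell, while Sox4, Zeb2 and Cd24a lie to the left in Vpreb3+ Fcer2a- cells and near or right of 0 in Fcer2a-positive cells. Dotted lines mark 1.5-fold.

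Cirbp, Tsc22d3 and Lmo2 came first among the named genes that were higher. Cirbp, a cold-inducible RNA-binding protein, had 510.3 CPM in antibiotic cells and 180 CPM in vehicle cells, a ratio of 2.84 (2.35 to 3.45). Rbm3, its relative, had 1115 and 579 CPM, a ratio of 1.92. Each was higher to a like degree in Fcer2a-positive cells, at ratios of 2.41 for Cirbp and 1.92 for Rbm3, and in T cells, where Cirbp had 378 CPM (antibiotic) and 132 CPM (vehicle). A Cirbp UMI was seen in 69.4% of the antibiotic and 37.8% of the vehicle cells, and after thinning in 50.5% and 22.3%. In free RNA, taken from barcodes under 100 UMIs, Cirbp had 414 CPM (antibiotic) and 187 CPM (vehicle) and Rbm3 1232 and 721 CPM, so a gap of the same direction was seen outside cells. Over the alternatives run, one of which subtracted free RNA, the log2 ratio of Cirbp in the Vpreb3+ Fcer2a- cells ran between 1.01 and 1.77.

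Tsc22d3, the glucocorticoid-induced leucine zipper, had 989 CPM in antibiotic cells and 414 CPM in vehicle cells, a ratio of 2.39 (2.09 to 2.72), against a ratio of 2.05 in Fcer2a-positive cells. Fkbp5, a co-chaperone of the glucocorticoid receptor, had 54.6 and 4.93 CPM, a ratio of 11.1 (4.24 to 36.6). Ddit4 (2.82) and Txnip (1.66) were also higher. Of the 6 measured glucocorticoid-responsive genes 5 were past the fold upward and 1 downward, with a median of 0.99 against 1.17 over these genes in Fcer2a-positive cells. Of all genes 8.81% were past the fold upward and 8.55% downward. Free RNA held 276 CPM (antibiotic) and 228 CPM (vehicle) of Tsc22d3.

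Lmo2, a transcriptional adaptor of blood progenitors and B cells, had 331 CPM in antibiotic cells and 129 CPM in vehicle cells, a ratio of 2.56. Its ratio in Fcer2a-positive cells was 1.57, and the difference of the log2 ratios was 0.71 (0.35 to 1.07). Within the cells with 2 to 4 Vpreb3 UMIs Lmo2 had 370 and 151 CPM, and at 5 or more 167 and 86.0 CPM. The higher level in the antibiotic library was thus seen at both ends of the Vpreb3 range. Pdcd4, an inhibitor of translation, had 271 CPM in antibiotic cells and 118 CPM in vehicle cells, and the other named genes that were higher were Gm26917, Pik3ip1, Sorl1, Cd200 and Hist1h1c, at ratios of 2.11 to 2.61.

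Stmn1 (ratio 0.171), Hspa1a (0.250), Ifi27l2a and Plac8 came first among the named genes that were lower. Plac8, a small cysteine-rich protein of leukocytes, had 331 CPM in antibiotic cells and 989.6 CPM in vehicle cells, a ratio of 0.335. Ifi27l2a, an interferon-induced gene, had 343 and 1044 CPM, a ratio of 0.328. In Fcer2a-positive cells the ratios were 0.514 for Plac8 and 0.517 for Ifi27l2a, so the direction was shared. A Plac8 UMI was seen in 36.1% of antibiotic and 67.7% of vehicle cells. Within the cells with 2 to 4 Vpreb3 UMIs Plac8 had 293 CPM in the antibiotic library and 986 CPM in the vehicle library, and at 5 or more 491 and 997 CPM. T cells, in which Ifi27l2a had 302 CPM (antibiotic) and 987 CPM (vehicle), showed a gap of the same direction. Free RNA did too, with 460 CPM (antibiotic) and 823 CPM (vehicle) of Plac8 and 256 and 832 CPM of Ifi27l2a. Over the alternatives the log2 ratio ran between −1.79 and −1.01 for Plac8 and between −1.74 and −1.26 for Ifi27l2a. Gem (ratio 0.250), Dynll1 (0.437) and Hspa5 (0.430) were also among the named genes that were lower.

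Interferon response genes as a list were lower in the antibiotic library. Of 17 measured genes 1 was past the fold upward and 9 downward, and 13 lay below 0. Over all 4982 genes 8.55% were past the fold downward and 2392 lay below 0. The median of the list was −0.67, against −0.55 over these genes in Fcer2a-positive cells and 0.02 over all genes. The median difference between the kinds of cell was −0.08. Ly6a had a ratio of 0.600, while Ly6e, in the same list, had 3177 CPM in antibiotic cells and 2725 CPM in vehicle cells. Isg15 had 5.65 and 29.6 CPM.

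Heat shock genes were lower too. Of 9 measured genes 7 were past the fold downward and none upward, with a median of −0.84 against −0.44 over these genes in Fcer2a-positive cells. Of all genes 8.55% were past the fold downward. Hspa8, a chaperone that all cells make, had 586 CPM in antibiotic cells and 1052 CPM in vehicle cells. Hspa1a, induced by stress and nearly identical to Hspa1b, had 79.1 and 316 CPM, but 5 cells gave 92.9% of its UMIs in the antibiotic library. Immediate early genes had a median of −0.41, against 0.21 over these genes in Fcer2a-positive cells, and of 16 measured 5 were past the fold downward and none upward. Jun had 169 and 344 CPM.

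Markers of the label were lower or alike in the antibiotic library. Cd24a had 659 CPM in antibiotic cells and 977 CPM in vehicle cells, a ratio of 0.675 (0.60 to 0.76), against 1.16 in Fcer2a-positive cells. The difference of the log2 ratios was −0.78 (−1.01 to −0.56). Within the cells with 2 to 4 Vpreb3 UMIs Cd24a had 517 and 634 CPM, and at 5 or more 1257 and 1664 CPM. The antibiotic level was lower in each range. Sox4 had 41.4 and 108 CPM, a ratio of 0.385. Ms4a1 had a ratio of 0.780, Fam129c of 0.818 and Spib of 1.05. Of the 6 measured immature genes 1 was past the fold, downward, beside 8.55% of all genes. The median of the list was −0.32 against 0.08 over these genes in Fcer2a-positive cells.

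Genes of mature cells ran the other way, by little. Ighd had 934 CPM in antibiotic cells and 585 CPM in vehicle cells, a ratio of 1.60, and Ighm 5205 and 6046 CPM. Of 13 follicular genes 3 were past the fold upward and none downward, with a median of 0.15. Over all 4982 genes 8.81% were past the fold upward and 2590 lay above 0. Of 12 class II genes 10 lay above 0 and 1 was past the fold, with a median of 0.14, against −0.07 in Fcer2a-positive cells. H2-Aa had a ratio of 1.16 in Vpreb3+ Fcer2a- cells and 0.946 in Fcer2a-positive cells, a difference of 0.29 (0.21 to 0.37). Within cells of like Vpreb3, H2-Aa had 5186 CPM (antibiotic) and 4877 CPM (vehicle) at 2 to 4 UMIs, and 2327 and 2273 CPM at 5 or more. Beside these values, cells with 5 or more Vpreb3 UMIs were 16.2% of the antibiotic and 32.1% of the vehicle cells.

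Among 4978 genes measured in both kinds of B cell, the log2 ratio was at least 1.5-fold greater in Vpreb3+ Fcer2a- cells for 330 (6.63%) and at least 1.5-fold smaller for 546 (11.0%). The genes with the clearest smaller ratios were Stmn1, Hist1h2ap, Hspa1a, Zeb2, Atp1b1, Fos, Rgs2, Dusp2, Cd24a and Sox4. Zeb2, a transcription factor known from activated and age-associated B cells, had 56.5 CPM in antibiotic cells and 168 CPM in vehicle cells, against 65.0 and 66.4 CPM in Fcer2a-positive cells. Rgs2, a regulator of G protein signals, had 143 CPM in antibiotic and 319 CPM in vehicle cells, against 132.6 and 130.4 CPM in Fcer2a-positive cells. Zeb2 and Rgs2 were thus highest, of these 4 groups of cells, in the Vpreb3+ Fcer2a- cells of the vehicle library, where they were seen in 31.2% and 41.6% of cells. For Hist1h2ap, a histone gene of S phase, 5 vehicle cells gave 74.8% of 310 UMIs, 93 of them in 1 cell. Cell cycle genes had 7 of 11 measured members past the fold downward, beside 8.55% of all genes. Their median of −0.69 turned to 0.04 once cells with UMIs of other lineages were left out.

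Genes of the mitochondrial respiratory chain and of microbial sensing were set beside all 4982 measured genes. Of those, 439 were past the fold upward and 426 downward, and 2590 lay above 0 and 2392 below. All 49 measured genes of oxidative phosphorylation were within it, with 39 below 0 and a median of −0.24, against −0.18 in Fcer2a-positive cells. Of 7 genes of microbial sensing, Toll-like receptor partners such as Unc93b1, Ly86 and Cd180 included, all 7 lay above 0 and 1 was past the fold, with a median of 0.24 against 0.25 over these genes in Fcer2a-positive cells.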

How the data were processed

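Single-cell RNA sequencing was made from CD45+ liver leukocytes, 1 antibiotic and 1 vehicle library. The matrices deposited by the authors hold raw UMI counts (whole numbers, neither normalized nor filtered for cells), empty barcodes included. According to the submitters' processing notes, bcl2fastq and Cell Ranger were run with the mm10 build. Their versions are not given in the sources used here. Symbols were taken from the files, positions from GENCODE vM21 on GRCm38 and promoters from RefSeq.

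Cells were called at 1500 or more UMIs and under 10% mitochondrial UMIs. Below that minimum, at 1000 or more UMIs, 4 of 103 antibiotic and 8 of 162 vehicle barcodes met the rest of the rule. Counts were summed per library and group and scaled to CPM. Genes needed 30 UMIs in both groups together, 0.5 was added for log2 ratios, and 1.5-fold was the rule of size. Cells of 1 library are not replicates, so no test was made. Intervals cover counting error at 95%. The interval of a difference of log2 ratios is a normal one from 4 Poisson counts. Thinning drew 1500 UMIs per cell (seed 0). Doublets were scored with Scrublet, at an expected 6%, which marked 2.21% of antibiotic and 4.58% of vehicle cells, and were kept. Genes of the selection rule were left out of list counts.

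The cells and gene lists were chosen with earlier results of these data known. Named genes are the immature, precursor, follicular and immunoglobulin lists, up to 4 genes of highest CPM from each other list, and for each comparison the 10 higher and 10 lower genes by the interval bound nearest 1, at 100 CPM or more, without ribosomal, mitochondrial, hemoglobin, receptor segment and other-lineage genes. Not all of them are described in the text, and a few genes are not reported here. Genes outside the rule are Wfdc21, Ezh2, E2f2, Akap12, Isg15, Jun, Ccr6 and Alyref2, chosen after their values were seen. Alternatives changed the UMI, mitochondrial, Vpreb3 and Cd79a limits, thinning, doublets, cells with RNA of other lineages, scaling, free RNA, the gene filter, the pseudocount and the fold. The computation was tested on simulated data. The software was matplotlib 3.10.9, scikit-learn 1.9.0, scanpy 1.11.5, pandas 2.3.3, scipy 1.17.1 and numpy 2.4.6 under Python 3.11.15.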

Additional observations from a re-analysis of the deposited data

Results flagged for a closer look

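The named genes alone were searched for opposite directions, not all measured genes. For 3 of them the Vpreb3+ Fcer2a- cells and the Fcer2a-positive cells moved in opposite directions between the libraries, by at least 1.5-fold each. Fos was itself named for the size of this difference. The difference between the kinds of cell was not tested, since each library is 1 sample. Fos, an immediate early gene, had 99.8 CPM in antibiotic cells and 158 CPM in vehicle cells among Vpreb3+ Fcer2a- cells, a ratio of 0.632, and a ratio of 1.5 in Fcer2a-positive cells, so that the log2 ratios differed by −1.24 (−1.71 to −0.77). It had 53 UMIs in 36 antibiotic cells and 160 UMIs in 101 vehicle cells. In Fcer2a-positive antibiotic cells 34 of 455 Fos UMIs were in 1 cell. Lyz2, a myeloid gene, differed by −2.95 and Hbb-bs, a hemoglobin gene, by −2.81. In the Vpreb3+ Fcer2a- cells Lyz2 had 10 UMIs in the antibiotic library and 66 in the vehicle library, 34 of these in 1 cell, and Hbb-bs 11 and 52 UMIs. In Fcer2a-positive antibiotic cells, 1 cell held 207 of the 415 UMIs of all myeloid markers and 1 cell held 7250 of the 7333 UMIs of all erythroid markers.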

How the results depend on the processing

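No paired analysis was possible because each condition has 1 library. Settings chosen after seeing the data were a Vpreb3 minimum of 5, a range of 2 to 4, leaving out cycling cells, and the unchanged rule on thinned cells. Of 193 shares and counts of genes under the alternatives, 130 stayed within their interval or 1.5 times, 62 moved and 1 reversed. The share of B cells (log2 ratio 0.40 of antibiotic over vehicle) reversed to −0.58 at a Vpreb3 minimum of 5 and was 0.15 at 3. The share of called cells (log2 ratio −0.42) was −1.10 at a minimum of 2500 UMIs, −0.67 at Vpreb3 of 3, and −1.40 at 5. It was −0.016 without B cells holding UMIs of other lineages, with all called cells still the denominator. The number of genes measured under each alternative is not given, so the counts of genes that follow are not shares. 

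Genes 1.5-fold higher and lower than in Fcer2a-positive cells in both libraries (87 and 48) were 55 and 31 at 2500 UMIs, 177 and 89 at Vpreb3 of 3, 48 and 28 at 1, 444 and 176 at 5, 36 and 13 with the relaxed rule on thinned cells, 276 and 143 at 10 UMIs per gene, 870 and 365 with no filter on genes, and 11 and 9 at 2-fold. The higher ones were 167 after subtraction of free RNA and 55 at Vpreb3 of 2 to 4, and the lower ones 27 with the unchanged rule on thinned cells. Against other Fcer2a-negative cells (96 and 49) they were 161 and 89 at Vpreb3 of 3, 450 and 160 at 5, 253 and 176 at 10 UMIs per gene, 669 and 453 with no filter, 15 and 10 at 2-fold, and 147 and 123 with the unchanged rule on thinned cells. The higher ones were 189 after subtraction of free RNA and 51 at Vpreb3 of 2 to 4, and the lower ones 304 with the relaxed rule on thinned cells and 21 without cells holding UMIs of other lineages.

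Genes higher and lower in the antibiotic library (439 and 426) were 225 and 247 without cells holding UMIs of other lineages, 192 and 258 at Vpreb3 of 5, 1222 and 997 at 10 UMIs per gene, 2689 and 2833 with no filter, and 91 and 113 at 2-fold, and the higher ones were 291 at 2500 UMIs. Differences from Fcer2a-positive cells (330 and 546) were 182 and 306, 161 and 269, 997 and 1307, 2237 and 2811, and 61 and 153 under the same settings, without the one at 2500 UMIs, and the greater ones were 522 with the relaxed rule on thinned cells.

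Of the single genes and list medians, 10 and 3 values reversed. Against Fcer2a-positive cells, Il7r turned to 0.35 (antibiotic library, relaxed rule on thinned cells) and −0.54 (vehicle library, unchanged rule on thinned cells), Fkbp5 to −0.14 (antibiotic library, unchanged rule on thinned cells) and Hmgb2 to −0.19 and −0.042 and the cell cycle median to −0.14 and −0.15 (vehicle library) without cells of other lineage UMIs and without cycling cells. Between libraries, Hist1h2ap turned to 0.15, 0.38 and 0.37 without cells of other lineage UMIs, at Vpreb3 of 2 to 4 and without cycling cells, Tubb5 to 0.098 and 0.044 without cells of other lineage UMIs and with the unchanged rule on thinned cells, and the cell cycle median to 0.035 without cells of other lineage UMIs. The cause was not tested. Depth limits genes under 30 UMIs and the cells with 10 or more Vpreb3 UMIs, of which the antibiotic library held 6.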
